A study of Mus musculus with 8 samples.

Results

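The astroglia of the paraflocculus and flocculus (PF/F), lobules of the vestibulo-cerebellum, are described here from nuclei of mice at postnatal day 5.5 (P5.5). The members are the nuclei that the authors' deposited annotation calls Astroglia, matched by library and barcode to the raw counts. They numbered 7152 of the 48237 annotated PF/F nuclei and of the 79313 annotated nuclei of the whole series. The annotation divides the PF/F nuclei into 16 types, and the other 15 types serve below as the comparison.

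The study asked how the loss of 1 copy of Tbx1, a T-box transcription factor gene of the 22q11.2 deletion, affects the PF/F and the bone around it. Nuclei came from Tbx1+/- mice, which are heterozygous, and from their wild-type (WT) littermates, all at P5.5 and on C57BL/6J, with both sexes used in the study, and the 4 PF/F libraries are WT 1, WT 2, Tbx1+/- 1 and Tbx1+/- 2. Each library was made from a pool of 5 mice, so the 2 libraries of a genotype, and not the nuclei or the mice, are the replicates. The 4 libraries of the petrous bone were not analysed here. The mutation is carried in every cell of the animal. A change in astroglia therefore cannot be told apart from a response to a change elsewhere, and unequal capture of nuclei cannot be told apart from an unequal number of cells.

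Astroglia of the cerebellum comprise Bergmann glia, whose cell bodies lie beside the Purkinje cells and whose radial fibers guide migrating granule neurons, and astrocytes of the granular layer and the white matter. They clear glutamate and GABA from the synaptic cleft, buffer potassium and water, supply lipids and secrete matrix proteins. In the postnatal cerebellum some glial progenitors still divide and give rise to further astroglia and to interneurons.

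WT 1 gave 2042 astroglial nuclei with 7555927 unique molecular identifiers (UMIs) in all, and WT 2 gave 1233 with 5054190. Tbx1+/- 1 gave 2017 nuclei with 6483349 UMIs, and Tbx1+/- 2 gave 1860 with 7639124. The median nucleus had 2846 to 3591 UMIs and 1734 to 2006 detected genes. The share of mitochondrial UMIs was lower in WT 2 (a median of 0.371%) and Tbx1+/- 2 (0.551%) than in WT 1 (0.886%) and Tbx1+/- 1 (0.786%), so the libraries split by replicate number, with no separation by genotype. Levels below are UMIs scaled to 1e6 UMIs of the summed nuclei (CPM), given as the mean ± SD over the 4 libraries. Since Cell Ranger counted introns, and long genes hold more intron, levels are compared between types or libraries for a given gene and not between genes.

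The targeted gene could not be checked in these nuclei. Tbx1 had 1 UMI in 7152 astroglial nuclei, in Tbx1+/- 2, and 38 UMIs in all annotated PF/F nuclei, of which 20 were in endothelial nuclei. By library the 38 were 4 in WT 1, 10 in WT 2, 11 in Tbx1+/- 1 and 13 in Tbx1+/- 2, not scaled for depth.

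Slc1a3, which encodes the glutamate and aspartate transporter GLAST and marks the class, was highest in astroglia among the 16 types. The gene (ENSMUSG00000005360) lies on chromosome 15, from 8634124 to 8710764 on the minus strand (mm10). Its level was 1854 CPM in WT 1, 2418 in WT 2, 2562 in Tbx1+/- 1 and 2436 in Tbx1+/- 2. The mean of 2318 ± 316 CPM stood above the next type, the meningeal nuclei (1081 CPM), in all 4 libraries, and above the differentiated granule neurons, at 68.9 CPM. The annotation was made by clustering on these same genes, so all comparisons of levels between types are descriptions with no test.

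Of 12 general astroglial markers, 11 were at 10 CPM or more in the class and 5 were higher there than in any other type. Aldh1l1, a folate enzyme used to mark astrocytes, was at 243 ± 25.1 CPM against 46.2 in the next type. Aqp4, the water channel of glial endfeet, was at 584 ± 56.9 CPM against 302 in the nuclei annotated RL.early, a type in which the summed ependymal markers reached 2936 CPM. Fabp7, the brain lipid-binding protein of radial glia, was at 1098 ± 180 CPM against 752. Other general markers were shared with or led by other types. Gja1, the gene of the gap junction protein connexin 43, was at 49.4 ± 7.51 CPM in astroglia and at 357 in meningeal nuclei, and Slc1a2, the second glial glutamate transporter, was at 401 ± 18.7 CPM in astroglia and at 657 in GABA interneuron progenitors.

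**Figure D1:**
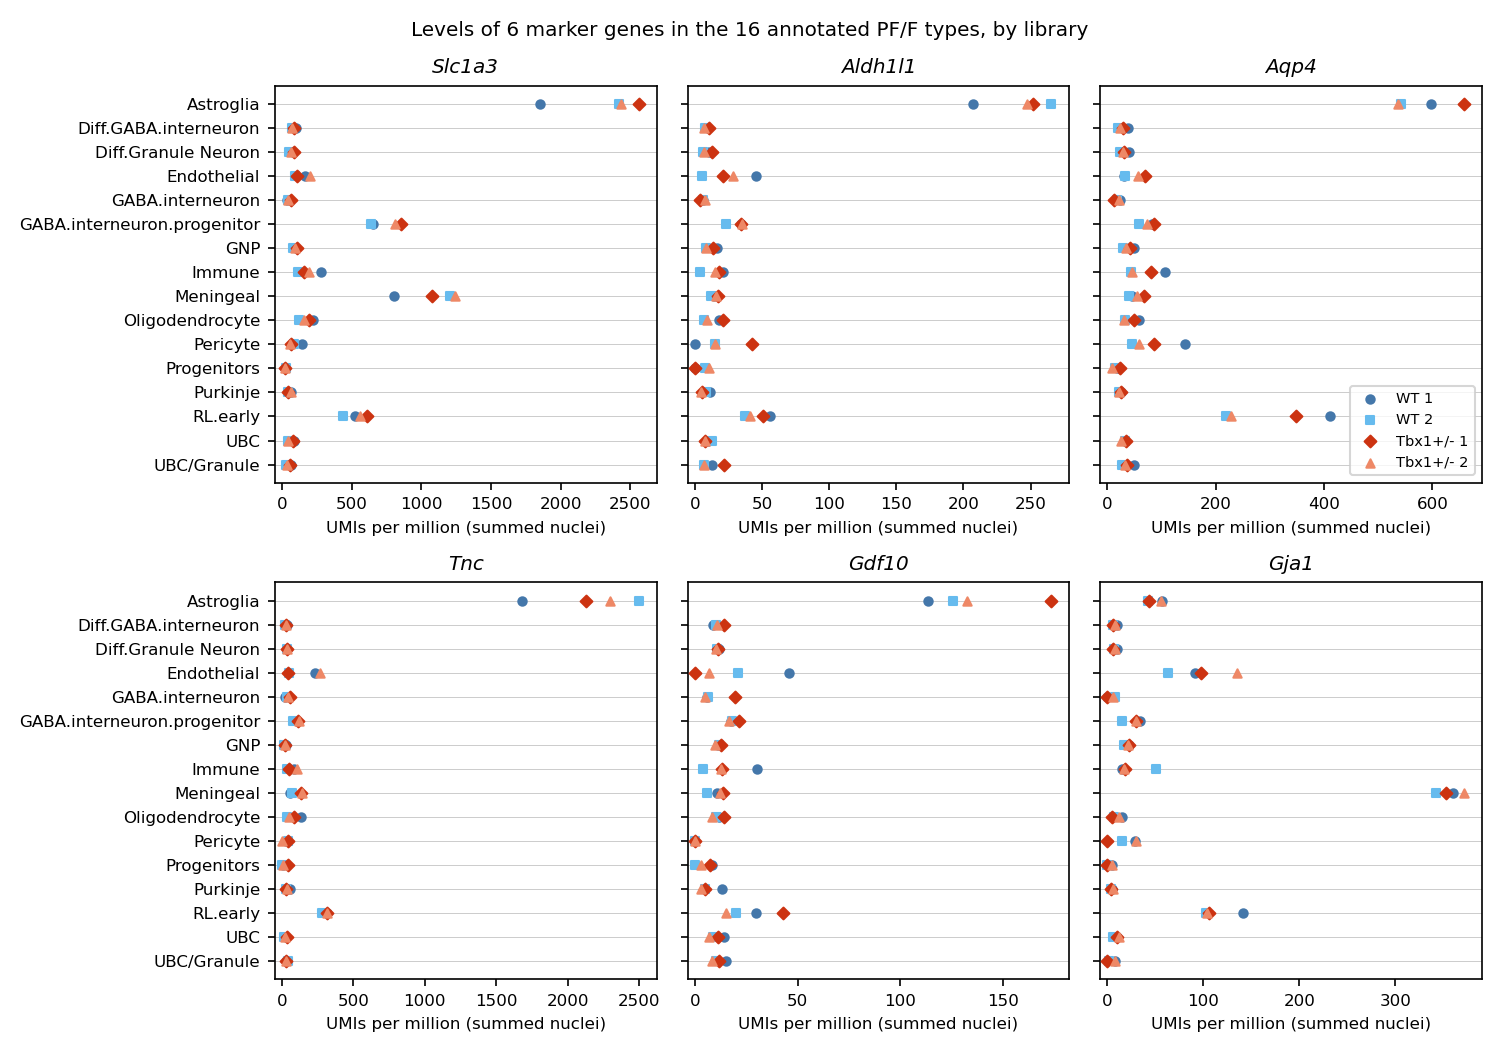
Levels of 6 marker genes in the 16 annotated PF/F types, in CPM of summed nuclei (horizontal axis, linear from 0), with 1 point for each of the 4 libraries. Slc1a3, Aldh1l1, Aqp4, Tnc and Gdf10 are higher in astroglia than in every other type in all 4 libraries, whereas Gja1 is highest in meningeal nuclei.

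Summed markers of Bergmann glia and of other astrocytes were both higher in the class than in any other type. Single genes were highest there for 5 of 8 of the former and 6 of 7 of the latter. The summed level of the former was 5405 to 7529 CPM over the 4 libraries, against 3195 in the next type, the oligodendrocytes, and that of the latter 1765 to 2004 CPM, against 719 in RL.early. Tnc, the matrix protein tenascin C, was at 1680, 2497, 2128 and 2296 CPM in WT 1, WT 2, Tbx1+/- 1 and Tbx1+/- 2, and at 305 CPM in the next type. Gdf10, a ligand of the BMP family and the standard marker of Bergmann glia, was at 136 ± 26.1 CPM against 27.0. Gria1 and Gria4, the AMPA receptor subunits of Bergmann glia, were at 1310 ± 203 and 1556 ± 296 CPM, and here the margins were small, since Purkinje cells held 1073 CPM of Gria1, which exceeded the astroglial level in 1 of the 4 libraries, and GABA interneurons in differentiation 1384 CPM of Gria4. Of the markers of other astrocytes, Slc4a4, a sodium bicarbonate cotransporter, was at 1016 ± 152 CPM, Gfap, the intermediate filament, at 133 ± 13.3 and Slc6a11, the GABA transporter GAT3, at 104 ± 31.1, each highest in astroglia. Gjb6, the connexin 30 gene of mature astrocytes, was at 0.822 ± 0.506 CPM.

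Markers of other cell types were present at lower levels than in their own types. The summed granule neuron markers were at 216 to 335 CPM, against 1114 in differentiated granule neurons, the Purkinje markers at 411 to 474 CPM against 11032, and the oligodendrocyte markers at 76.0 to 90.8 CPM against 2678. Endothelial markers were at 6.22 to 11.8 CPM and meningeal markers at 14.0 to 21.8 CPM. The choroid plexus markers, of which Ttr made up most, were at 80.5 to 246 CPM, and hemoglobin and other erythroid genes at 206 to 293 CPM. Free RNA in the droplets can give such UMIs in nuclei that do not express a gene. The deposited counts do not include the authors' correction for it, and the corrected UMIs of the astroglia were 0.731 to 0.795 times the raw ones, by library.

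Among 10819 genes at 10 CPM or more in astroglia, 490 (4.53%) were higher there than in any other type. The 20 that stood highest over the next type, at 50 CPM or more, were Rxrg, Gm31135, 8030451A03Rik, Tnc, Gm15756, Slc13a5, Aldh1l1, Acsbg1, Gdf10, Clrn1, Mybpc1, Cacng5, Emid1, Atp13a4, Ackr3, Cyp26b1, Gm29521, Pdlim3, Nos1ap and Thrsp, and each exceeded the next type in all 4 libraries. Rxrg, the retinoid X receptor gamma gene on chromosome 1 (167598384 to 167639623, plus strand, mm10), led with 105, 126, 122 and 113 CPM in WT 1, WT 2, Tbx1+/- 1 and Tbx1+/- 2 against 11.2 CPM in endothelial nuclei. Cyp26b1, which encodes an enzyme that degrades retinoic acid, was at 882 ± 66.4 CPM against 255 in GABA interneuron progenitors. Both genes belong to the handling of retinoids, although the list as a whole was not chosen or tested by function.

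Others of the 20 act in metabolism or in receiving signals. Slc13a5, a citrate transporter, was at 96.5 ± 9.47 CPM against 14.7 in the next type, and Acsbg1, an acyl-CoA synthetase of long-chain fatty acids, at 68.1 ± 2.96 CPM against 13.5. Ackr3, a scavenger receptor of the chemokine CXCL12, was at 117 ± 11.9 CPM against 33.0, and Cacng5, an auxiliary subunit of AMPA receptors, at 51.2 ± 7.25 CPM against 11.2. Over 15731 genes, the mean profile of astroglia was most like that of GABA interneuron progenitors (Pearson's r = 0.936 of log2 CPM plus 1), oligodendrocytes (0.910) and granule neuron progenitors (0.891). The types share libraries and free RNA, so this order is a description.

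In transmitter handling, 6 of 14 listed genes were highest in astroglia. Grm3, a metabotropic glutamate receptor, was at 1895 ± 376 CPM but GABA interneurons were close, at 1662 CPM, and higher in 2 of the 4 libraries. Slc6a9, the glycine transporter GlyT1, was at 37.3 ± 2.08 CPM against 26.4. Glul, glutamine synthetase, was at 81.6 ± 13.4 CPM, no higher than in immune nuclei (82.3 CPM).

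In lipid metabolism, 6 of 16 genes were highest in astroglia. Scd2, a fatty acid desaturase, had the narrowest spread, with 393, 381, 386 and 387 CPM in WT 1, WT 2, Tbx1+/- 1 and Tbx1+/- 2, against 194 CPM in oligodendrocytes. Apoe, the main lipid carrier protein of the brain, varied most, with 2317, 913, 2206 and 1218 CPM in the same order. It was lower in both libraries numbered 2 than in both numbered 1, with no separation by genotype, and immune nuclei held 6126 CPM.

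In water, ion and junction genes 5 of 12 were highest in astroglia, among them Kcnj10, the potassium channel Kir4.1, at 45.2 ± 3.10 CPM against 29.3 in oligodendrocytes. Of the secreted, matrix and synapse genes 4 of 16 were, including Sparcl1, a secreted synaptogenic protein, at 847 ± 47.8 CPM against 572 in endothelial nuclei, and Megf10, a phagocytic receptor, at 242 ± 42.5 CPM against 87.4. Of the transcription factor genes 4 of 20 were. Npas3 was at 3764 ± 566 CPM against 2368 in RL.early, and Id4 at 123 ± 20.1 CPM against 73.4. Factors such as Nfia and Sox9, which are needed for gliogenesis, were matched or exceeded in other types, with Nfia at 2116 ± 218 CPM in astroglia and 4187 in granule neuron progenitors.

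Of the FGF, EGF and BMP list, which holds receptors and targets of growth factor signals, 8 of 17 genes were highest in astroglia. Fgfr1 was at 331 ± 32.6 CPM against 154 in meningeal nuclei, Etv5, a target of FGF signaling, at 133 ± 16.5 CPM against 76.3, and Bmpr1b, a BMP receptor, at 444 ± 65.9 CPM against 320. In the Notch list 2 of 16 genes were highest. Hes5, a target of Notch, was at 154 ± 24.5 CPM against 65.9 in GABA interneuron progenitors, while the ligands Dll1 (4.32 CPM) and Jag1 (19.5 CPM) were higher in other types. In the Hedgehog list only Gli3 was highest (232 ± 30.6 CPM against 221). Ptch1, receptor and target of Sonic hedgehog, was at 222 ± 6.53 CPM and Gli1 at 18.2 ± 3.33, both below granule neuron progenitors (326 and 42.0 CPM). Of 12 genes of reactive astrocytes, 5 were at 10 CPM or more and 3, Gfap among them, were highest in astroglia. Their summed level was 416 to 450 CPM, against 482 in endothelial nuclei. Lcn2 and Steap4 had 0 UMIs in all 4 libraries, for which 3 counts would be 0.393 to 0.594 CPM per library. C3 was at 0.259 ± 0.118 CPM.

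Clustering of the astroglial nuclei, on genes scaled within each library, gave 10 subclusters that each held nuclei of all 4 libraries. Their defining genes follow from the clustering and are described with no test. Subcluster 1, with 1888 nuclei (26.4%), was Bergmann glia-like. Its Gria1 level was 3206 ± 271 CPM against 822 in the rest, Gdf10 was at 292 CPM, Tnc at 4188, Hopx at 145 and Slc1a3 at 4231, while Gfap was at 31.9.

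Subcluster 4, with 795 nuclei (11.1%), was astrocyte-like. It held 636 ± 108 CPM of Slc6a11 against 44.7 in the rest, and the highest Gfap (423 CPM), Slc4a4 (2426), Gja1 (204) and Agt (48.7) of the 10 subclusters. Its Slc1a3 level of 814 CPM was the lowest of the 10 and its Gria1 level was 54.8 CPM. The oligodendrocyte lineage factor Olig2 (82.8 CPM) and the receptor genes Egfr (836 CPM) and Fgfr3 (104 CPM) were also highest there. The mean level of Slc1a3, the marker of the class, was thus higher in the Bergmann glia-like than in the astrocyte-like subcluster.

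Subcluster 2 (1512 nuclei) and subcluster 7 (289 nuclei) had no marker of a named kind among their leading genes and stay unnamed. Subcluster 2 was led by C530044C16Rik, Scube2, a secreted protein of Hedgehog release, and Pgm5, and held 1017 CPM of Aqp4, 203 of Gfap and 2883 of Apoe. Subcluster 7 was led by Gm47520 (487 ± 74.4 CPM against 19.8 in the rest) and held the highest Aqp4 (1245 CPM) and Pax3 (1415 CPM). Both had less Gria1 (448 and 241 CPM) and Gdf10 (79.5 and 65.7 CPM) than the Bergmann glia-like nuclei.

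Subcluster 5, with 738 nuclei (10.3%), was led by mitotic genes. Top2a, the topoisomerase of dividing cells, was at 878 ± 147 CPM against 117 in the rest, and Mki67 at 259 CPM. The same nuclei held Bergmann glia markers, with 2282 CPM of Gria1, 266 of Gdf10 and 3081 of Tnc, but 24.5 CPM of Gfap and 50.1 of Slc6a11. Subcluster 9 (155 nuclei) had 0.588 times the median UMIs of its libraries, with 5212 CPM of Slc1a3, and was led by Il12rb2, Poln and the mitotic gene Cenpf.

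Subclusters 3, 6, 8 and 10, 1775 nuclei or 24.8% of the class, had genes of neurons among their leading genes. Subcluster 3 (800 nuclei) was led by Galntl6, Cntnap2 and Nrg1, subcluster 6 (731) by Dcc, the netrin receptor, and Ebf3, subcluster 8 (180) by Nxph1, Pax2 and Gad1 of the GABA interneuron lineage, and subcluster 10 (64) by genes that include Lmx1a and Grm8 of unipolar brush cells. Subcluster 3 held granule neuron markers at 2.84 times the rest and unipolar brush cell markers at 8.52 times. Subcluster 6 held granule neuron markers at 2.74 times the rest, and also S phase genes at 1.81 times and a list of 10 mitotic genes at 2.19 times. The median UMIs per nucleus of subclusters 3, 6, 8 and 10 were 1.51 to 1.92 times those of all astroglia of the same libraries, against 0.588 to 1.06 in the other subclusters. Slc1a3 stayed between 1250 and 1715 CPM. Nuclei among the 8% with the most UMIs in their library made up 19.8% to 41.2% of them and 0 to 2.98% of the others. No removal of doublets is described for these data, and whether these are droplets with more than 1 nucleus was not tested. They made up 29.9% of the astroglia of WT 1, 17.0% of WT 2, 27.7% of Tbx1+/- 1 and 21.3% of Tbx1+/- 2, and the tests of genes by genotype, the nuclei per library, the ratios and the mitotic share below were repeated without them. Without them the summed granule neuron markers of the class went from 278 to 115 CPM and the unipolar brush cell markers from 161 to 23.5 CPM, and 664 instead of 490 genes were highest in astroglia.

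**Figure D2:**
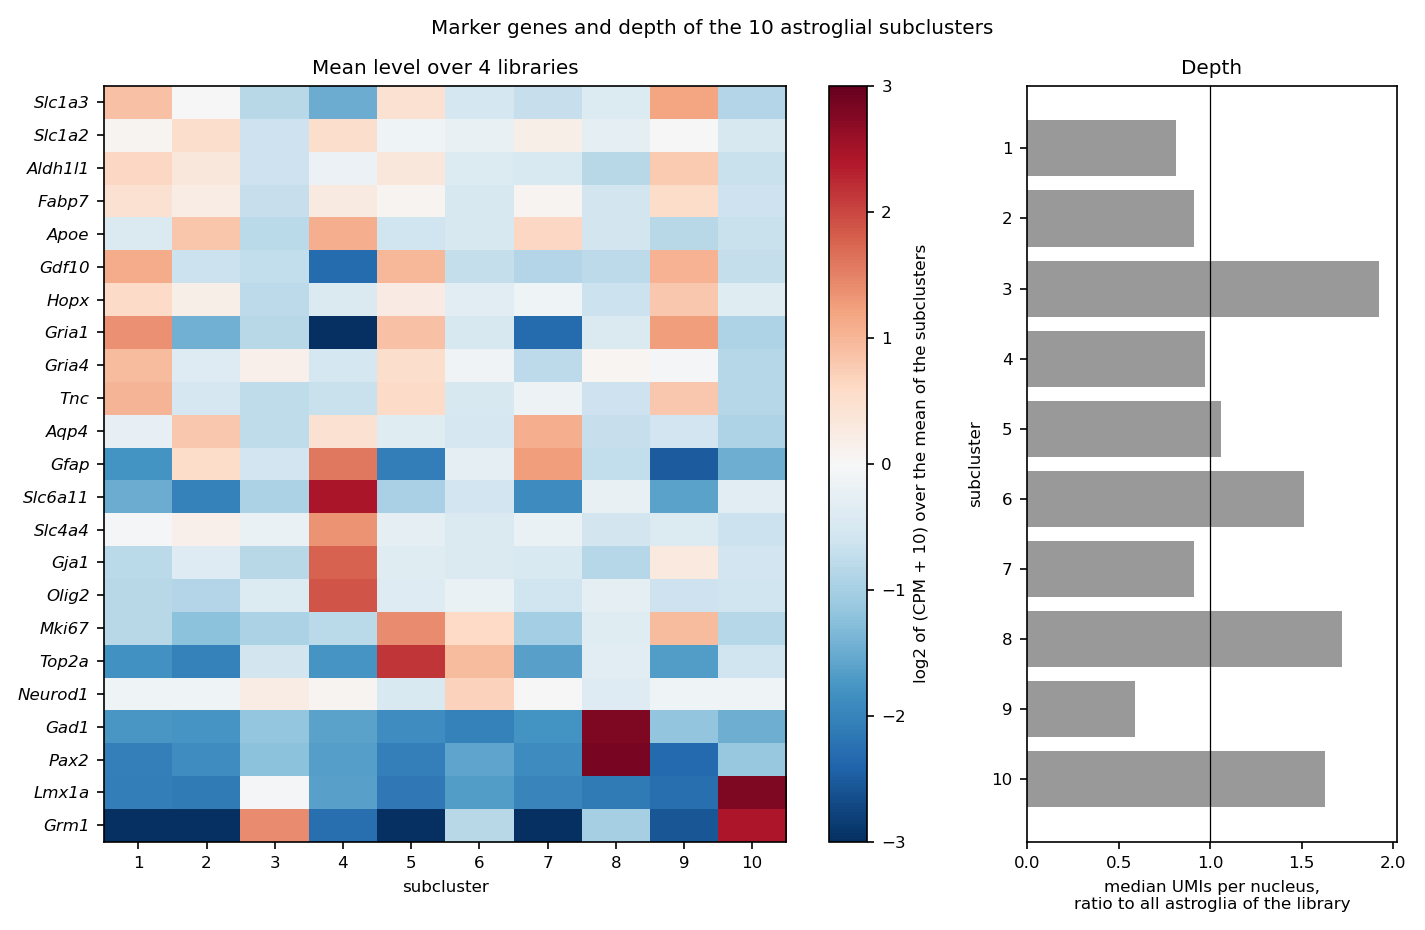
Mean level over 4 libraries of 23 listed marker genes in the 10 astroglial subclusters (left, log2 of CPM plus 10 over the mean of the subclusters) and the median UMIs per nucleus as a ratio to all astroglia of the same library (right). Bergmann glia markers are high in subclusters 1, 5 and 9, Slc6a11, Gfap and Gja1 in subcluster 4, and subclusters 3, 6, 8 and 10 have a ratio above 1.5 beside neuronal genes.

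No subcluster passed as changed in share by genotype. The Bergmann glia-like share was 22.1% and 31.0% in WT 1 and WT 2 and 27.1% and 27.3% in Tbx1+/- 1 and Tbx1+/- 2. The astrocyte-like share was 13.0% and 11.8% in WT against 7.34% and 12.7% in Tbx1+/-, where Tbx1+/- 1 alone was low. The groups overlapped for both. By edgeR's quasi-likelihood test on nuclei per library, 0 of 10 subclusters differed at a false discovery rate of 0.1 and 0 had an unadjusted p under 0.05. The changes were 0.037 ± 0.29 (SE) on the log2 scale for subcluster 1, -0.31 ± 0.35 for subcluster 4 and 0.11 ± 0.29 for the mitotic subcluster 5.

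**Figure D3:**
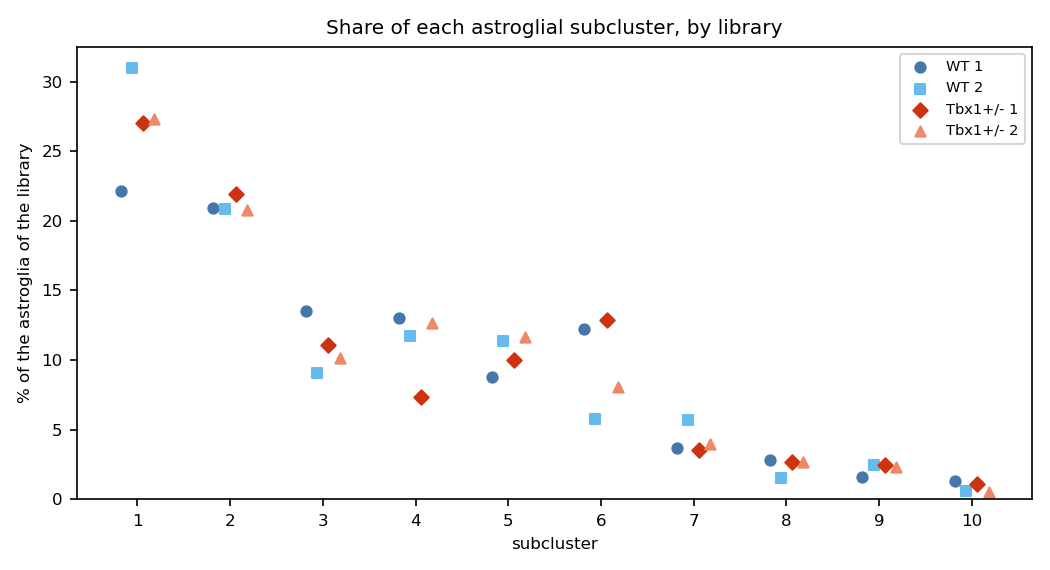
Share of each subcluster among the astroglia of each library (vertical axis, percent from 0), with 1 point per library. WT and Tbx1+/- points overlap in the large subclusters 1 and 2, and subcluster 4 is lowest in Tbx1+/- 1, at 7.34%.

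Dividing nuclei were counted as those with 2 or more UMIs over 10 mitotic genes, Mki67, Top2a, Cenpf, Cenpe, Kif11, Tpx2, Nusap1, Kif23, Aurkb and Hmmr, after each nucleus was thinned to 1500 UMIs. Thinning left out 13 astroglial nuclei that were shallower. The share was 18.5% in WT 1, 14.0% in WT 2, 19.8% in Tbx1+/- 1 and 14.0% in Tbx1+/- 2, with Wilson 95% intervals of 16.9% to 20.2%, 12.1% to 16.02%, 18.1% to 21.6% and 12.5% to 15.7%. Without thinning it was 32.3%, 25.3%, 31.3% and 25.2%. The same count gave 8.76%, 4.40%, 9.87% and 4.83% in differentiated granule neurons, which no longer divide, with a median of 2572 to 3483 UMIs, and 1.26% to 6.69% in Purkinje cells. The astroglial share was thus above this background in all 4 libraries, and in both types the libraries numbered 1 were above those numbered 2. It was below that of granule neuron progenitors, at 58.1 ± 3.41% over the 4 libraries. By genotype the shares differed by 0.674 percentage points, Tbx1+/- above WT, and the groups overlapped (exact permutation test, two-sided, p = 0.67, where 0.33 is the smallest p that 2 libraries against 2 allow). Within the replicate numbers the difference was 1.28 points between the libraries numbered 1 and 0.067 points between those numbered 2, both with Tbx1+/- above WT, and each pair's intervals overlapped. Without thinning, as the values above show, both pairs had Tbx1+/- below WT, so the direction depended on the thinning.

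Within the class the share was 70.1 ± 5.72% in subcluster 5, 37.5 ± 3.33% in subcluster 6 and 30.6 ± 13.0% in subcluster 9. It was 5.34 ± 2.30% in the Bergmann glia-like and 4.34 ± 1.87% in the astrocyte-like subcluster, near the level of the granule neurons. These subclusters were formed with the same genes, so the contrast is a description.

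**Figure D4:**
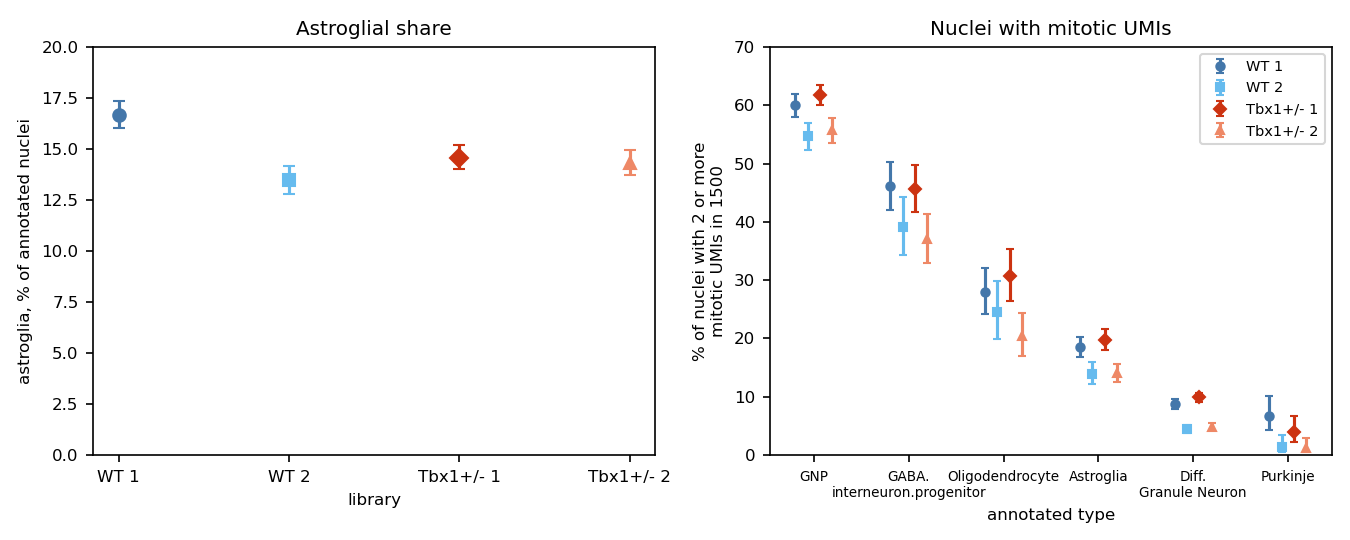
Left, astroglia as a percent of the annotated nuclei of each library; right, percent of nuclei with 2 or more mitotic UMIs among 1500 in 6 annotated types, with 1 point per library. Bars are Wilson 95% intervals for counting error; in every library astroglia lie between the oligodendrocytes and the differentiated granule neurons, and libraries numbered 1 are above those numbered 2 in these types.

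Astroglia made up 16.7% of the annotated nuclei in WT 1 (Wilson 95% interval 16.01% to 17.3%), 13.5% in WT 2 (12.8% to 14.2%), 14.6% in Tbx1+/- 1 (14.0% to 15.2%) and 14.3% in Tbx1+/- 2 (13.7% to 14.9%). The WT libraries enclosed the Tbx1+/- libraries. The change was -0.061 ± 0.20 (SE) on the log2 scale, with an adjusted p of 0.98 by edgeR's quasi-likelihood test over the 16 types. Of the 16 types 0 passed the false discovery rate of 0.1, and 0 had an unadjusted p under 0.05, both by edgeR and by DESeq2. For each differentiated granule neuron there were 0.462 and 0.346 astroglial nuclei in WT 1 and WT 2 and 0.381 and 0.372 in Tbx1+/- 1 and Tbx1+/- 2. For each Purkinje cell there were 6.83 and 4.15 in WT against 6.57 and 4.70 in Tbx1+/-. None of 4 such ratios separated the genotypes, with GABA interneuron progenitors and oligodendrocytes as the other two, and the exact permutation p-values (two-sided) were 0.67 to 1.

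No gene passed as changed by genotype in astroglia in the edgeR fit without a replicate block. In the sums per library 0 of 16138 genes (0%) reached an adjusted p under 0.05 with a change above 1.5-fold by edgeR's quasi-likelihood test. In that fit 134 (0.83%) had an unadjusted p under 0.05, a smaller share than the 0.05 that a test with no changed gene gives on average. Differences between replicate numbers stay in its spread, a common biological coefficient of variation of 0.150 against 0.074 with the block. A high adjusted p in it therefore does not show that a gene is unchanged. In DESeq2 1 gene, Ttr, passed. With the replicate block, where WT 1 is set against Tbx1+/- 1 and WT 2 against Tbx1+/- 2, edgeR called 3 genes (0.0186%), Ttr, Atp13a4 and Spp1, and 543 (3.36%) had an unadjusted p under 0.05, of which 248 (1.54%) were higher and 295 (1.83%) lower in Tbx1+/-. That fit leaves 1 residual degree of freedom per gene, and its p-values rest on the spread shared across genes (a median of 32.0 prior degrees of freedom, against 6.56 without the block).

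Ttr encodes transthyretin, the thyroid hormone carrier that choroid plexus secretes. Its level in astroglia was 54.5 CPM in WT 1, 60.0 in WT 2, 110 in Tbx1+/- 1 and 220 in Tbx1+/- 2. Both Tbx1+/- libraries were above both WT libraries, with a log2 change of 1.46 ± 0.13 (SE) and an edgeR adjusted p of 4.8e-09 with the block, and 1.55 ± 0.30 with an adjusted p of 1.00 without it. With 1 library left out and no block the change ran from 0.95 without Tbx1+/- 2 (edgeR adjusted p = 0.54) to 1.97 without Tbx1+/- 1 (2.7e-08). The other annotated nuclei of the same libraries held 80.1, 77.8, 135 and 300 CPM, listed in that order. Ttr reached 2446 CPM in RL.early and lay between 53.5 and 161 CPM in each of the other types, so astroglia (111 ± 76.7 CPM) did not stand apart in its level, and the log2 difference in change between astroglia and the other nuclei was 0.091 ± 0.12 (edgeR interaction, adjusted p = 1). Lists of markers of cells outside the class differed in direction by genotype. By the sign of the log2 difference, 3 granule neuron markers were higher and 3 lower in Tbx1+/-. The same counts were 3 and 2 for Purkinje, 5 and 1 for GABA interneuron and 1 and 2 for unipolar brush cell markers. They were 2 and 2 for meningeal, 3 and 0 for endothelial, 2 and 0 for pericyte and 1 and 4 for microglial markers. Over all 16138 genes tested they were 8023 and 8115. The summed erythroid genes were at 211 and 206 CPM in WT 1 and WT 2 and at 222 and 293 in Tbx1+/- 1 and Tbx1+/- 2, and 4 of 5 had a positive log2 difference (median 0.39, 0 passed). All 6 oligodendrocyte markers lay on the side of WT (median -0.33, 0 passed), with sums of 90.8, 76.8, 76.0 and 76.7 CPM. Ptgds, the prostaglandin D synthase that meningeal cells make, was chosen after its values were seen. It was at 45.3 and 4.35 CPM in WT 1 and WT 2 and at 62.5 and 18.5 CPM in Tbx1+/- 1 and Tbx1+/- 2, and at 67.3, 9.71, 120 and 34.2 CPM in the other nuclei. The genotypes overlapped (log2 change 0.66 ± 0.78, edgeR adjusted p = 1.00).

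Atp13a4, a P5-type ATPase gene on chromosome 16 (29395853 to 29544864, minus strand, mm10), is 1 of the 20 genes that stood highest over other types. Its level was 45.0 and 47.3 CPM in WT 1 and WT 2 and 70.8 and 98.4 CPM in Tbx1+/- 1 and Tbx1+/- 2, with no overlap. The log2 change was 0.87 ± 0.11 with an edgeR adjusted p of 2.7e-05 with the block, and 0.90 ± 0.19 with an adjusted p of 1.00 without it. With 1 library left out and no block the change ran from 0.63 without Tbx1+/- 2 to 1.12 without Tbx1+/- 1. The mouse region that holds Tbx1 is also on chromosome 16, and linkage was not tested. In the sum of all other annotated nuclei Atp13a4 was at 1.53 and 1.32 CPM in WT and at 1.68 and 2.43 CPM in Tbx1+/-, again with no overlap. Of the other types, GABA interneuron progenitors held the most, at 16.5 ± 8.17 CPM over the 4 libraries, against 65.4 ± 24.9 in astroglia. The change in astroglia was not shown to differ from that in the other nuclei (edgeR interaction 0.34 ± 0.19 on the log2 scale, adjusted p = 1).

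Spp1, the secreted phosphoprotein osteopontin, was at 21.4 and 23.9 CPM in WT and at 6.79 and 14.9 CPM in Tbx1+/-. With the block it fell by 1.08 ± 0.19 on the log2 scale (edgeR adjusted p = 0.018), and without it the change was -1.02 ± 0.32 with an adjusted p of 1.00. With 1 library left out and no block it ran from -1.73 without Tbx1+/- 2 (edgeR adjusted p = 0.0019) to -0.57 without Tbx1+/- 1 (0.9999). The other nuclei held 24.6 and 33.8 CPM in WT and 11.9 and 22.1 CPM in Tbx1+/- (edgeR interaction -0.33 ± 0.18, adjusted p = 1). For Ttr and Spp1, in contrast to Atp13a4, the other nuclei of a library thus held more than the astroglia did, and the part of free RNA in these values was not tested.

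By the rule for genes to name, the 10 with the smallest unadjusted p that moved the same way under both replicate numbers were Ttr, Atp13a4, 1810012K08Rik, Stox1, Gpr35, Gm47520, Gm42903, Spp1, Fxyd1 and Gm14393, none of which passed in the edgeR fit with the filter on low counts and no block. Without a block, Ttr passed in DESeq2 (adjusted p = 0.012), and Ttr, Atp13a4 and Spp1 passed in edgeR with no filter on low counts (adjusted p = 1.2e-10, 0.026 and 0.026). In that unfiltered fit the median prior degrees of freedom were infinite, so its p-values rest on the spread shared across genes. Among the 10 genes, Gm47520, the leading gene of subcluster 7, was at 37.1 and 50.8 CPM in WT and at 30.1 and 25.1 CPM in Tbx1+/-, a log2 difference of -0.65 ± 0.20 (edgeR adjusted p = 1.00). With 1 library left out it ran from -0.88 without WT 1, where it passed (edgeR adjusted p = 0.028), to -0.40 without WT 2 (0.9999). The share of subcluster 7 itself was 3.67% and 5.68% in WT and 3.52% and 3.92% in Tbx1+/-. In the other nuclei it was at 0.799 to 1.28 CPM. Of the remaining 6 genes none exceeded 6.63 CPM in any library.

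**Figure D5:**
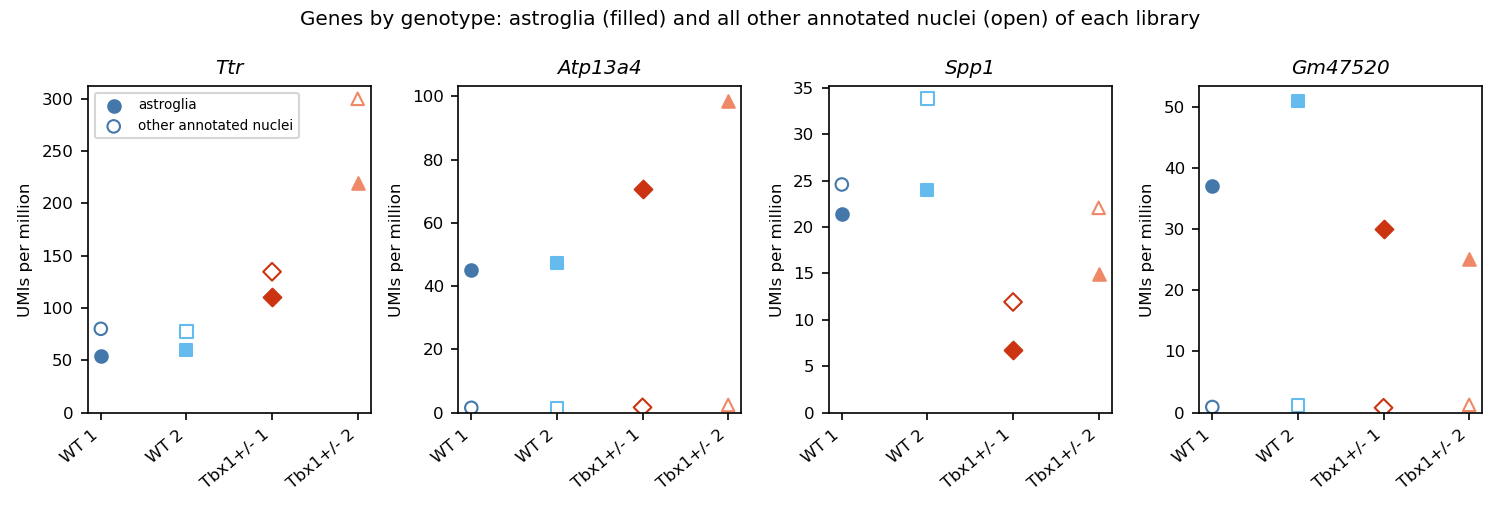
Levels of 4 genes by library, in CPM (vertical axes, linear from 0), in astroglia (filled) and in all other annotated nuclei of the same library (open). For Ttr the other nuclei follow and exceed the astroglia, up to 220 CPM in astroglia and 300 CPM in the others in Tbx1+/- 2. Atp13a4 and Gm47520 are near 0 in the sum of the other nuclei, although Atp13a4 reached a mean of 16.5 CPM in GABA interneuron progenitors.

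No gene of the groups of astroglial function passed as changed by genotype. Over all genes tested the median log2 change was -0.0012, with both Tbx1+/- libraries above both WT libraries for 8.87% of genes and below them for 12.7%. In transmitter handling 0 of 14 genes passed, the median was 0.023 and the single changes ran from -0.23 to 0.24, with 2 genes above and 0 below without overlap. In lipid metabolism 0 of 16 passed, with a median of 0.063 and a range of -0.10 to 0.37, and 3 genes were above and 0 below without overlap. In water, ion and junction genes 0 of 11 tested passed (median 0.0060, range -0.14 to 0.13), in the secreted, matrix and synapse genes 0 of 15 tested (median 0.053, range -0.47 to 0.18), and in the glial transcription factors 0 of 20 (median 0.037, range -0.19 to 0.21). Without overlap, 0 water, ion and junction genes were above and 2 below. These counts were 1 and 1 for the secreted, matrix and synapse genes and 1 and 2 for the transcription factors. Of 8 glial progenitor genes 0 passed, with 2 on the side of Tbx1+/- and 6 on that of WT (median -0.17).

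Of 8 Bergmann glia markers 0 passed. Their summed level was 5405 and 7529 CPM in WT 1 and WT 2 and 6581 and 7272 CPM in Tbx1+/- 1 and Tbx1+/- 2, so that WT 1 was the lowest library, WT 2 the highest and the genotypes overlapped. All 8 had a positive log2 difference (median 0.12), as did 8023 of all 16138 genes. For 3 markers both Tbx1+/- libraries were above both WT libraries, as for 8.87% of all genes. For 0 markers both were below, as for 12.7% of all genes. WT 1 also had the lowest share of Bergmann glia-like nuclei, given above, whose part in these values was not tested. For Gdf10 the values were 113 and 125 CPM in WT and 173 and 132 CPM in Tbx1+/-, a log2 difference of 0.37 ± 0.18 (edgeR adjusted p = 1.00, and 0.95 with the block). For Tnc, given above, the genotypes overlapped.

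In the Notch list 0 of 16 genes passed (median -0.043). Its Hes genes differed in sign. Hes5 was at 185 and 160 CPM in WT and at 141 and 129 in Tbx1+/- (log2 difference -0.34 ± 0.17), and Hes1 was at 64.5 and 56.2 CPM in WT and at 106 and 63.2 in Tbx1+/- (0.50 ± 0.23). Their edgeR adjusted p-values with the block were 0.95 and 0.35. In the Hedgehog list 0 of 11 passed (median 0.040, range -0.22 to 0.17), in the FGF, EGF and BMP list 0 of 17 (median 0.023, range -0.17 to 0.37) and in the reactive list 0 of 8 tested (median -0.0057, range -0.44 to 0.25). Of 43 S phase and 54 G2/M phase genes 0 passed, with medians of 0.024 and 0.015. The 20 genes that stood highest over other types had a median of 0.091, with 3 above and 1 below without overlap, against 8.87% and 12.7% of all genes.

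The genotype effect in astroglia was also set against that in all other annotated nuclei of the same libraries. Of 19795 genes 0 (0%) differed with an adjusted p under 0.05 and by more than 1.5-fold in edgeR's interaction test, 338 (1.71%) had an unadjusted p under 0.05, and by DESeq2 0 passed and 35 stood at a raw p under 0.05. The smallest unadjusted p belonged to Col4a6, a collagen gene, at 31.5 and 55.0 CPM in the astroglia of WT and 32.5 and 39.5 CPM in those of Tbx1+/-, which overlapped (interaction -0.73 ± 0.13 on the log2 scale, edgeR adjusted p = 1).

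Xist, the RNA of the inactive X chromosome, was at 577 and 776 CPM in the astroglia of WT 1 and Tbx1+/- 1 and at 1359 and 1742 CPM in those of WT 2 and Tbx1+/- 2. The summed level of 4 Y-linked genes was 384 and 350 CPM in the former pair and 267 and 247 in the latter. The ratio of Xist to the Y-linked genes was 1.503 in WT 1 and 2.22 in Tbx1+/- 1, and 5.09 in WT 2 and 7.04 in Tbx1+/- 2. It was thus higher in the libraries numbered 2 and, within each number, higher in Tbx1+/-, and the part of the sexes in the genotype values was not tested.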

How the data were processed

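Nuclei of the PF/F were profiled in 4 libraries with a 10x 3′ kit that carries UMIs. The deposited matrices hold raw UMI counts for every gene and barcode. The authors ran Cell Ranger 7.0.0 (per the submitters' processing notes) in intron mode on mm10. The authors' annotation gives the type of each nucleus and its expected count, that is its UMIs after SoupX correction, used here only as a ratio. Nuclei were taken as annotated, and doublets were not removed. Coordinates come from GENCODE vM21 (GRCm38, the same build).

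UMIs were summed per library and type, and Python 3.11.15, scipy 1.17.1 and leidenalg 0.10.2 were used. Genotypes were compared with edgeR 4.0.16 (filterByExpr, TMM, quasi-likelihood test, SE as the log2 change over the square root of F) in R 4.3.3, with Benjamini-Hochberg adjustment over all genes, at an adjusted p under 0.05 and 1.5-fold, and DESeq2 1.42.0 was an alternative. The interaction fit had library as a term. Nuclei per type were tested likewise with all annotated nuclei as offset at a false discovery rate of 0.1. Astroglia were clustered at Leiden resolution 0.5 (2000 variable genes, 30 principal components, 20 neighbors).

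The genes named are those of written lists, the 20 highest over other types and the 10 with the smallest p. The members and the lists were chosen with earlier results of these data known. The subclusters left out have a median UMI ratio of 1.3 or more and a neuronal list at 2 times the rest or more, a choice made after seeing the data. The study pooled 5 mice of each genotype in each of 2 batches, and libraries of the same number were taken as a batch. Their deviations from the genotype means correlated across 16138 genes (r = 0.389), and genes are not independent replicates. Counts were simulated with a single common spread for all genes and no difference between batches. The genes changed were at 20 CPM or more, and recovery of lower or more variable genes was not tested. On simulated counts with the spread of the fit without a block, 18% of 50 genes raised 1.5-fold in astroglia, 90% of 50 raised 2-fold and 66% of 50 lowered to 0.5 were called, with 7 false calls (16103 genes tested). In the interaction test 2% were called at 1.5-fold, 28% at 2-fold and 18% at 0.5, with 3 false calls (19821 genes). With the smaller spread of the fit with the replicate block, that fit called 50% at 1.5-fold, 100% at 2-fold and 98% at 0.5, with 3 false calls (16020 genes). At that spread the interaction test called 40% at 1.5-fold, 98% at 2-fold and 92% at 0.5, with 4 false calls (19796 genes). Nuclei per type were simulated in 20 sets for each fold, with a dispersion set at 0.02 and not estimated from these libraries. With astroglia raised, they were called in 30% at 1.5-fold and 55% at 2-fold, with 1 and 26 calls of other types. With no type changed, astroglia were called in 0%, with 6 calls of other types. Intervals and floors of 3 counts cover counting error only.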

Additional observations from a re-analysis of the deposited data

Results flagged for a closer look

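Barcodes outside the annotation also carried astroglial RNA. Of 9721 such barcodes in the 4 PF/F libraries, 3577 (36.8%) were led by the 12 astroglial markers, with at least 3 UMIs in sum and a larger sum than for each other list, a signal in data that no comparison above uses. The share was 50.3% in WT 1, 25.1% in WT 2, 34.7% in Tbx1+/- 1 and 27.7% in Tbx1+/- 2, with a median of 778.5 to 1319 UMIs. By the same measure 98.5% to 99.3% of the annotated astroglia and 23.5% of the 41085 other annotated nuclei (35.1%, 13.6%, 27.1% and 16.2% by library) were led by the astroglial markers. The sums were not scaled for list size, and the lists of other cell types hold 3 to 7 genes each, so the rule favors the longer astroglial list. Whether the barcodes outside the annotation are astroglial nuclei was not tested.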

How the results depend on the processing

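No gene was called by genotype with RLE factors, in nuclei with at least 2000 genes, without the 8% of nuclei with the most UMIs, without the subclusters led by neuronal genes or in subcluster 1 alone (the last 2 settings chosen after seeing the data). The count was 3 with the replicate block, 3 without a filter on low counts, 1 with DESeq2, 6 with the replicate block and without the subclusters led by neuronal genes (Ttr, Atp13a4, Spp1, Ptgds at 0.79, Grik1 at -0.65 and Gm15261 at -0.75 on the log2 scale), and 1 to 38 with a library left out. The 38 arose without WT replicate 1, and include 4 mitochondrially encoded genes and markers of neurons (Pcp2, Pcp4, Lhx1, Gad1 and Pax2, all higher in Tbx1+/-), with the smallest p for Ptgds (3.20). Leaving out WT replicate 2 gave 3, Tbx1+/- replicate 1 gave 1 and Tbx1+/- replicate 2 gave 3. Interaction calls stayed at 0 with the replicate block and the other settings and ran from 0 to 52 with a library left out, with 52 without WT replicate 1, among them Pax2, Gad1, Elavl2 and Ebf3, and 25 without WT replicate 2. A lone library is then assumed to vary like the other group. The cause was not tested.

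The log2 change in astroglial nuclei was -0.061, -0.053 with the replicate block, and ran from -0.21 to 0.10 with a library left out. For the ratio to granule neurons (-0.088) these bounds were -0.30 and 0.12, and the value was 0.068 in nuclei with at least 2000 genes. For Purkinje cells (0.061) they were -0.30 and 0.42, with -0.16 at 2000 genes, for GABA interneuron progenitors (0.059) -0.0071 and 0.12, and for oligodendrocytes (0.079) -0.027 and 0.18. Changes in subclusters 1, 4 and 5 ran from -0.19 to 0.30, from -0.76 to 0.033 and from -0.067 to 0.31, with 0 subclusters called in any setting. The mitotic difference of 0.674 points ran from -2.19 to 3.53, and was -0.255 thinned to 1000 UMIs and -0.565 not thinned. The replicate block changed no call on nuclei, and 3 of the 16 types, by nuclei, passed without Tbx1+/- replicate 2. Genes highest in astroglia numbered 664 without the subclusters led by neuronal genes.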
